A study of Mus musculus with 6 samples.

Results

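The 10 genes described here encode ligands, co-receptors, a receptor, antagonists and an effector of Nodal and activin signalling, and they were chosen by gene symbol from a table of 24975 genes: Nodal, Gdf1, Gdf3, Inhba, Cfc1, Tdgf1, Acvr2b, Fst, Lefty2 and Foxh1. RNA was sequenced from mouse mesoderm at embryonic day 7.5 in 3 Gli3R and 3 control libraries of 1000 sorted cells each. Gli3R embryos were Mesp1-Cre/+;R26-Gli3R-IRES-Venus/+, so that Cre, driven from a gene of nascent mesoderm, switched on a Gli3 repressor, the form of this transcription factor that shuts Hedgehog target genes, together with the Venus reporter, and cells were sorted by Venus. Control embryos were Mesp1-Cre/+;R26-tdTomato/+, and their cells were sorted by tdTomato. Both groups thus carried Mesp1-Cre, and an effect of Gli3R cannot be told apart from one of the reporter or the sort. Cells came from embryos pooled within a litter, and each of 3 litters gave 1 library of each group. Replicate numbers name the litter.

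Nodal is a secreted ligand of the transforming growth factor beta family, and it acts in the gastrula on the epiblast and primitive streak to form mesoderm and endoderm and later to set the left side. It pairs with Gdf1 or Gdf3, binds activin receptors together with a co-receptor of the EGF-CFC family (Tdgf1, called Cripto, or Cfc1, called Cryptic), and signals through Smad2 and Smad3 with the forkhead factor Foxh1. Lefty proteins block Nodal at its receptors, and follistatin, the product of Fst, binds activin and keeps it from its receptors.

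The libraries held 5481190 to 12635151 counts. Values are CPM, counts scaled to library size with TMM factors, so that 1 count stood for 0.0777 to 0.186 CPM. Gli3, which the transgene carries in part, stood at 43.6, 39.0 and 50.9 CPM in Gli3R libraries, against 25.8, 29.5 and 34.4 CPM in control libraries, a log2 fold change of 0.57 ± 0.15 (SE) that missed the threshold (adjusted p = 0.312 by edgeR's quasi-likelihood test with Benjamini-Hochberg adjustment). The counts do not separate transgene from endogenous reads. Control replicate 1 stood apart, at -39.8 on a first principal component that held 35.0% of the variance, with the other libraries between -2.25 and 19.2. The mesoderm markers fixed for the check were all detected, and their summed level ran from 589 to 764 CPM in Gli3R libraries, against 475 to 576 CPM in control libraries, led by Bmp4 and Hand1, while 6 of the 12 were lower in the Gli3R mean.

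Among the pathway genes, the follistatin gene Fst and the co-receptor gene Cfc1 were called lower in Gli3R mesoderm in the fit without litter. The ligand gene Gdf1, whose reads cannot be told apart from those of Cers1, was at a lower level that just missed the threshold. With litter as a block only Fst kept its call, and Cfc1 and Gdf1 had the same edgeR adjusted p of 0.0502. Transcripts of Tdgf1 and Lefty2 were sparse, with fewer reads in the Gli3R group and wide spread between litters. The effector gene Foxh1 and the receptor gene Acvr2b, both well expressed, showed no difference past the spread between libraries. Nodal itself and the activin subunit gene Inhba had 1 read each over the 6 libraries.

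**Figure D1:**
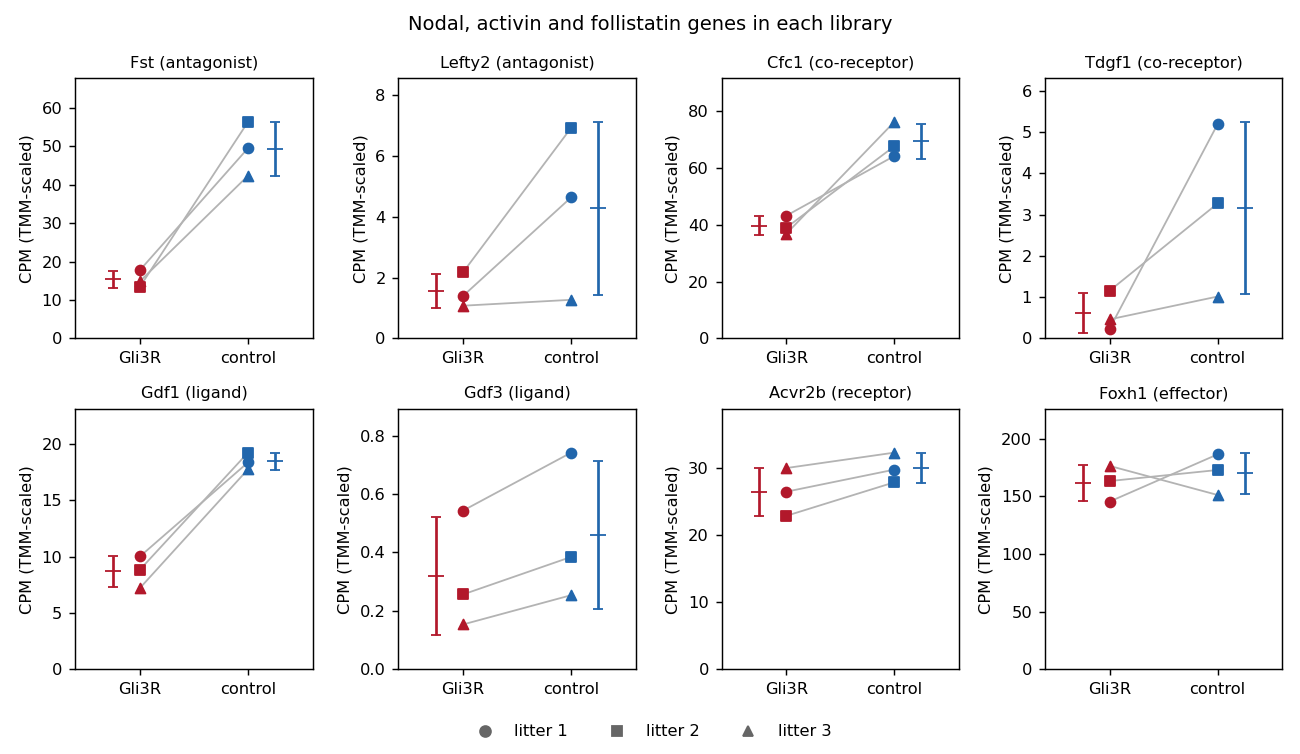
CPM (vertical axes, from 0) of 8 of the 10 genes in each library, Gli3R on the left and control on the right; lines join the libraries of a litter, symbols mark the litter, and bars show the mean ± SD of 3 libraries. Fst, Cfc1 and Gdf1 have all Gli3R libraries below all control libraries, while the groups overlap for the other 5.

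Of the 10 genes, 6 passed the filter on low counts and were tested. At an adjusted p under 0.05, 2 of the 6 were lower with Gli3R and 0 were higher, while 0.134% of the 11913 genes tested passed in either direction and 0.109% were lower. For 3 of the 6 every Gli3R library lay below every control library, as did 6.33% of all genes tested. In all 3 litters, 5 of the 6 were lower with Gli3R, against 15.3% of all genes tested. The 6 log2 fold changes ran from -1.68 to -0.07. A gene can pass the filter through its control libraries alone, so these counts describe the 6 genes and are no support for a direction.

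Fst, which encodes follistatin, had 229, 105 and 97 reads in Gli3R replicates 1, 2 and 3, against 267, 586 and 334 in the control replicates. Scaled, these were 17.8, 13.5 and 14.9 CPM in Gli3R mesoderm and 49.5, 56.4 and 42.4 CPM in control mesoderm. The groups were far apart, with the highest Gli3R library well below the lowest control library. Fst averaged 15.4 ± 2.20 CPM in Gli3R and 49.4 ± 7.01 CPM in control libraries (SD, n = 3 each). The log2 fold change was -1.68 ± 0.16 (SE; edgeR adjusted p = 0.00450), and the gene ranked 3 by p among all genes tested. Within litters 1, 2 and 3 the log2 ratio of Gli3R to control was -1.47, -2.05 and -1.49. The call was kept with litter as a block (edgeR adjusted p = 0.0121) and without control replicate 1 (edgeR adjusted p = 0.00449), and lost without Gli3R replicate 3 (edgeR adjusted p = 0.0628), a fit in which 0 genes of the table passed, with 659 at an unadjusted p under 0.05. In bulk libraries, fewer cells that express a gene and less RNA per cell cannot be told apart.

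The second antagonist among the members, Lefty2, a feedback inhibitor that Nodal itself induces, stood at 1.4, 2.18 and 1.07 CPM in Gli3R replicates 1, 2 and 3, against 4.64, 6.93 and 1.27 CPM in the control replicates. The control libraries of litters 1 and 2 were high and that of litter 3 lay within the range of the Gli3R libraries. The log2 fold change was -1.48 ± 0.55 (SE) and missed the threshold (edgeR adjusted p = 0.617). The log2 ratio was -1.58 in litter 1, -1.57 in litter 2 and -0.20 in litter 3. Of the 50-base stretches of its transcripts, 12% also occur in other genes, foremost Lefty1, which had 3 reads in Gli3R and 17 in control libraries. The depth-scaled ratio of Lefty1 was 0.154 (95% interval 0.0288 to 0.531, for counting error only).

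Cfc1 and Tdgf1 encode the EGF-CFC co-receptors, cell-surface proteins without which Nodal does not engage its receptors. The 250 bases upstream of their annotated starts (RefSeq, GRCm38.p6) are shown because the genes share this role and both had fewer reads in the Gli3R group, at very different depth. Capitals mark a stretch of 19 bases that stands in tandem, sharing no base, in the Tdgf1 window, and the Cfc1 window, all in lower case, holds no repeat longer than 7 bases.
Cfc1 (chr1:34535398-34535647, plus strand): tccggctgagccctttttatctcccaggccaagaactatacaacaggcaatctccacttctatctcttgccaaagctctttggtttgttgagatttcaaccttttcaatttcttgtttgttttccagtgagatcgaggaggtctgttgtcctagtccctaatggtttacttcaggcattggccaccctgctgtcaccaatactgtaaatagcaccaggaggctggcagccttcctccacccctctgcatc
Tdgf1 (chr9:110946159-110946408, minus strand): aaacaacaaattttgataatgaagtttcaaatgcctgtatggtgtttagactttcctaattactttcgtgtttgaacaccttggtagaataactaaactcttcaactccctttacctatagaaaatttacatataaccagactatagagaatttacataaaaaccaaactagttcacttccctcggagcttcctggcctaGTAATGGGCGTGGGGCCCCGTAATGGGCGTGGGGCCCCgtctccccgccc

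A repeat of at least 15 bases within 250 bases occurs in 2.47% of 32851 promoters, and it was looked for after the sequence was seen. Windows of 300 bases were available for 6 of the 10 genes (Cfc1, Gdf1, Tdgf1, Acvr2b, Nodal and Inhba), with 2 starts for Gdf1. None of the 7 windows holds the letters GACCACCCA (a Gli motif), TGTGNATT (Foxh1) or CAGACA (Smad) on either strand. Among all promoters of that length, 0.253%, 3.6% and 21% hold the Gli, Foxh1 and Smad letters. The absence of these letters from a window bears on no factor.

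Cfc1 stood at 43.2, 39.0 and 36.8 CPM in Gli3R replicates 1, 2 and 3, against 64.2, 67.6 and 76.2 CPM in the control replicates. All 3 Gli3R libraries were lower than each control library, with 1100 reads in the Gli3R group and 1650 in the control group. The mean was 39.7 ± 3.23 CPM in Gli3R and 69.4 ± 6.20 CPM in control libraries (SD, n = 3 each). The log2 fold change was -0.80 ± 0.11 (SE; edgeR adjusted p = 0.0365, and 0.0236 without control replicate 1). By litter, the log2 ratio was -0.57, -0.79 and -1.04 in litters 1, 2 and 3. Its size hardly moved when a library was left out (-0.87 to -0.73), but the call was lost with litter as a block (edgeR adjusted p = 0.0502) and without Gli3R replicate 1, 2 or 3 or control replicate 2 or 3 (edgeR adjusted p = 0.0788, 0.232, 0.160, 0.231 and 0.0861). In the GRCm38 annotation, 27.8% of the exon bases of Cfc1 also lie in exons of Prss40 on the opposite strand, which had 0 reads in Gli3R and 1 read in control libraries.

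Tdgf1, expressed in epiblast and streak as well as in early mesoderm, had 3, 9 and 3 reads in Gli3R replicates 1, 2 and 3 and 28, 34 and 8 reads in the control replicates. These were 0.233, 1.15 and 0.460 CPM in Gli3R against 5.20, 3.27 and 1.01 CPM in control libraries. Control replicates 1 and 2 were high, and control replicate 3 lay below Gli3R replicate 2. The depth-scaled ratio of the summed reads was 0.186 (95% interval 0.0991 to 0.329, again for counting error). The gene was under the filter. Without it, the log2 fold change was -2.38 ± 0.58 (SE) and did not pass (edgeR adjusted p = 0.0566 over 18719 genes, of which 0.577% passed). Of its 50-base stretches, 8.86% also occur in the pseudogene Tdgf1-ps1.

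Among the ligands, Gdf1, a partner of Nodal, was the one with reads enough to test. Gdf1 stood at 10.0, 8.84 and 7.21 CPM in Gli3R replicates 1, 2 and 3, against 18.4, 19.2 and 17.8 CPM in the control replicates. All Gli3R libraries lay well below the control libraries, which were close together. The mean was 8.69 ± 1.41 CPM in Gli3R and 18.5 ± 0.75 CPM in control libraries (SD, n = 3 each). The log2 fold change of -1.07 ± 0.17 (SE) missed the threshold (edgeR adjusted p = 0.0506, and 0.0502 with litter as a block). It passed without the filter on low counts (edgeR adjusted p = 0.00452) and with DESeq2 (adjusted p = 8.28e-04, a test in which 0.789% of all genes passed). The log2 ratio was -0.86, -1.10 and -1.27 in litters 1, 2 and 3.

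The reads of Gdf1 cannot be told apart from those of Cers1, a ceramide synthase gene with which it shares a transcript. Both have the same count in each of the 6 libraries, and 100% of the Gdf1 exon bases lie in Cers1 exons or in Upf1 exons on the opposite strand. Among 11137 genes with at least 100 reads, the table holds 11 sets of genes with identical counts. Upf1, a factor of RNA decay, did not follow Gdf1: it stood at 7.77, 10.00 and 12.9 CPM in Gli3R libraries and at 8.72, 8.47 and 8.88 CPM in control libraries.

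The other 3 ligand genes were at or near the limit of detection. Nodal had 1 read, in Gli3R replicate 2, and Inhba, which encodes the subunit of activin A, had 1 read, in Gli3R replicate 1. In a library with a count of 0, up to 3 counts are allowed, or 0.233 to 0.557 CPM across the 6 libraries, so that low expression of either gene was not detectable at this depth. Gdf3, a ligand of pluripotent cells, had 7, 2 and 1 reads in Gli3R libraries and 4, 4 and 2 in control libraries. Scaled for depth, the ratio of its reads was 0.870, with a 95% interval of 0.325 to 2.33 for counting error only.

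Acvr2b, a type II receptor that binds activin and Nodal, had 26.4, 22.8 and 29.9 CPM in Gli3R replicates 1, 2 and 3, while control replicates had 29.7, 27.8 and 32.2 CPM. It was slightly lower with Gli3R in each litter while the groups overlapped. The log2 fold change was -0.18 ± 0.14 (SE; edgeR adjusted p = 0.940), and by litter the log2 ratio was -0.17, -0.28 and -0.11.

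Foxh1, which brings Smad complexes to Nodal target genes, was the most abundant of the 10, with 145, 163 and 176 CPM in Gli3R replicates 1, 2 and 3, while control replicates had 186, 173 and 151 CPM. The groups overlapped, and Gli3R was lower in litters 1 and 2 and higher in litter 3 (log2 ratio -0.36, -0.08 and 0.22). With 4297 reads in Gli3R and 3994 in control libraries, its log2 fold change was -0.07 ± 0.11 (SE; edgeR adjusted p = 0.996). A value that misses the threshold does not show that a level was unchanged.

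Per kilobase of exon (lengths from GENCODE M21), the order in control libraries was Foxh1, Cfc1, Gdf1, Fst, Acvr2b, Lefty2, Tdgf1 and Gdf3, at 125, 66.7, 13.7, 10.8, 7.61, 1.64, 1.21 and 0.190 CPM per kilobase. Neighbours in that order did not overlap between libraries, except for Lefty2 and Tdgf1. The Gdf1 value divides reads that cannot be told apart from those of Cers1 by the 1.349 kilobases of Gdf1 exons alone. The place of Gdf1 is therefore uncertain in control and in Gli3R libraries. The level of Foxh1 exceeded that of 93.1% of the tested genes with a known length, and the level of Cfc1 that of 89.4%. In Gli3R libraries the order was Foxh1, Cfc1, Acvr2b, Gdf1, Fst, Lefty2, Tdgf1 and Gdf3, at 118, 38.1, 6.72, 6.44, 3.35, 0.594, 0.235 and 0.131 CPM per kilobase, where Acvr2b overlapped Gdf1, Lefty2 overlapped Tdgf1, and Tdgf1 overlapped Gdf3. Fst thus stood below Acvr2b in Gli3R mesoderm (2.93 to 3.88 against 5.81 to 7.62 CPM per kilobase) and above it in control mesoderm (9.23 to 12.3 against 7.08 to 8.20).

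**Figure D2:**
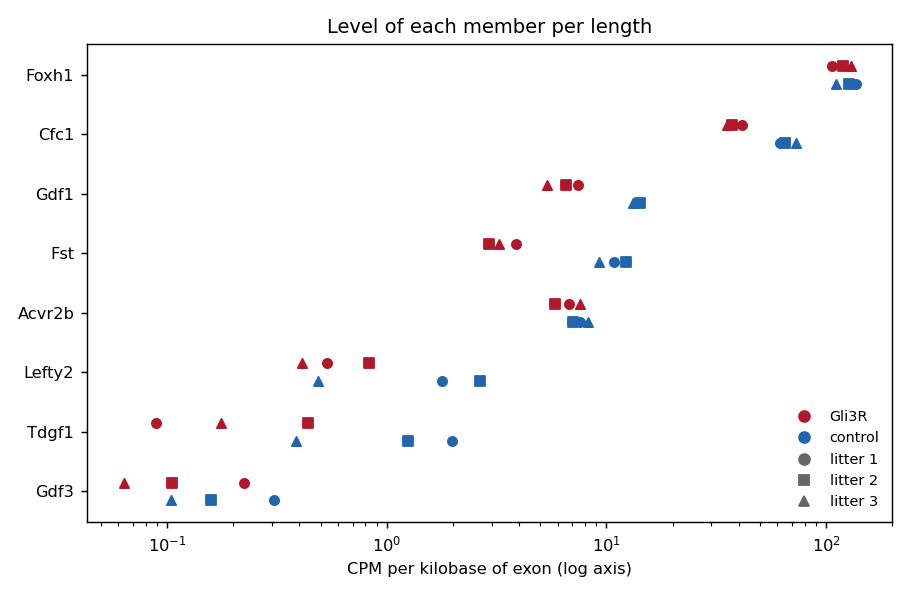
CPM per kilobase of exon (horizontal log axis) of 8 of the 10 genes, ordered by the control mean, with Gli3R libraries in red above control libraries in blue and symbols for the litter. Foxh1 and Cfc1 lead in both groups, and the reads of Gdf1 cannot be told apart from those of Cers1. Nodal and Inhba, with 1 read each, are not drawn.

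Of 45 other genes of the pathway, 35 were tested and 0 passed in either direction in the edgeR quasi-likelihood test, with 2 at an unadjusted p under 0.05 (Smad3 and T) against 6.85% of all genes tested. DESeq2 called 0 as well. Their median log2 fold change was -0.04, beside -0.01 for all genes tested. With litter as a block, 1 of them passed, T (Brachyury), the streak gene that Nodal signalling helps to switch on: its log2 fold change was -1.93 ± 0.55 (SE), with an edgeR adjusted p of 0.402 without and 0.0373 with the block, where 0.227% of all genes passed. Without control replicate 1, T stood at -1.08 ± 0.36 (SE; edgeR adjusted p = 0.469).

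Among effectors, Smad3, which carries the signal to the nucleus, stood at 9.09, 7.82 and 8.90 CPM in Gli3R replicates 1, 2 and 3, against 12.1, 14.5 and 15.9 CPM in the control replicates. Each Gli3R library lay below each control library, with a log2 fold change of -0.72 ± 0.17 (SE) that missed the threshold (edgeR adjusted p = 0.252). Of its partners in the same complexes, Smad2 stood at 74.5 ± 2.45 CPM in Gli3R and 76.8 ± 6.03 CPM in control libraries and Smad4 at 73.1 ± 12.4 CPM in Gli3R and 68.4 ± 6.01 CPM in control libraries (SD, n = 3 each), both with overlapping groups. The 12 effector genes had a median log2 fold change of -0.04. The corepressor genes Tgif1 (-0.19 ± 0.14) and Drap1 (0.21 ± 0.15), which hold Nodal targets in check, did not pass.

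Receptors and antagonists went both ways and none passed. The type I receptor genes stood at log2 fold changes of 0.36 ± 0.16 (SE) for Tgfbr1 and -0.55 ± 0.52 for Acvr1b, the main activin and Nodal receptor of its type, which had 26 reads in Gli3R and 33 in control libraries. Acvr2a, which acts like Acvr2b, was at -0.31 ± 0.18. Acvr1c, another type I receptor gene, had no count in any library. Of the antagonists beyond the members, Bambi, a receptor without a kinase domain, was at 0.25 ± 0.15, and Ncln and Nomo1, whose products form a complex in the endoplasmic reticulum that restrains Nodal, were at 0.17 ± 0.13 and -0.20 ± 0.20. Cer1, a secreted antagonist of Nodal, had 1748 reads in Gli3R and 1512 in control libraries.

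Of the 7 other ligand genes, 2 were tested, Tgfb2 (log2 fold change -0.03 ± 0.18, SE) and Tgfb1 (0.26 ± 0.48), and Inhbb, Gdf11 and Mstn had no count in any library. The convertase gene Furin, whose product cleaves the Nodal precursor, stood at -0.14 ± 0.41 with 34 reads in Gli3R and 32 in control libraries. The 8 tested target genes had a median log2 fold change of -0.33. Of these, 6 were below 0 and 2 above, beside 6178 of the 11913 genes tested below 0. The target genes Mixl1 (-0.83 ± 0.46) and Mesp1 (-0.51 ± 0.35) did not pass, and they stood at -0.31 and -0.10 without control replicate 1. The endoderm and node gene Foxa2, named after its values were seen, had 0 reads in Gli3R and 19 in control libraries. With 3 counts allowed over the Gli3R group, its level would be 7.28-fold lower, scaled for depth. That value takes the 19 control reads as exact and leaves out the spread between libraries.

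**Figure D3:**
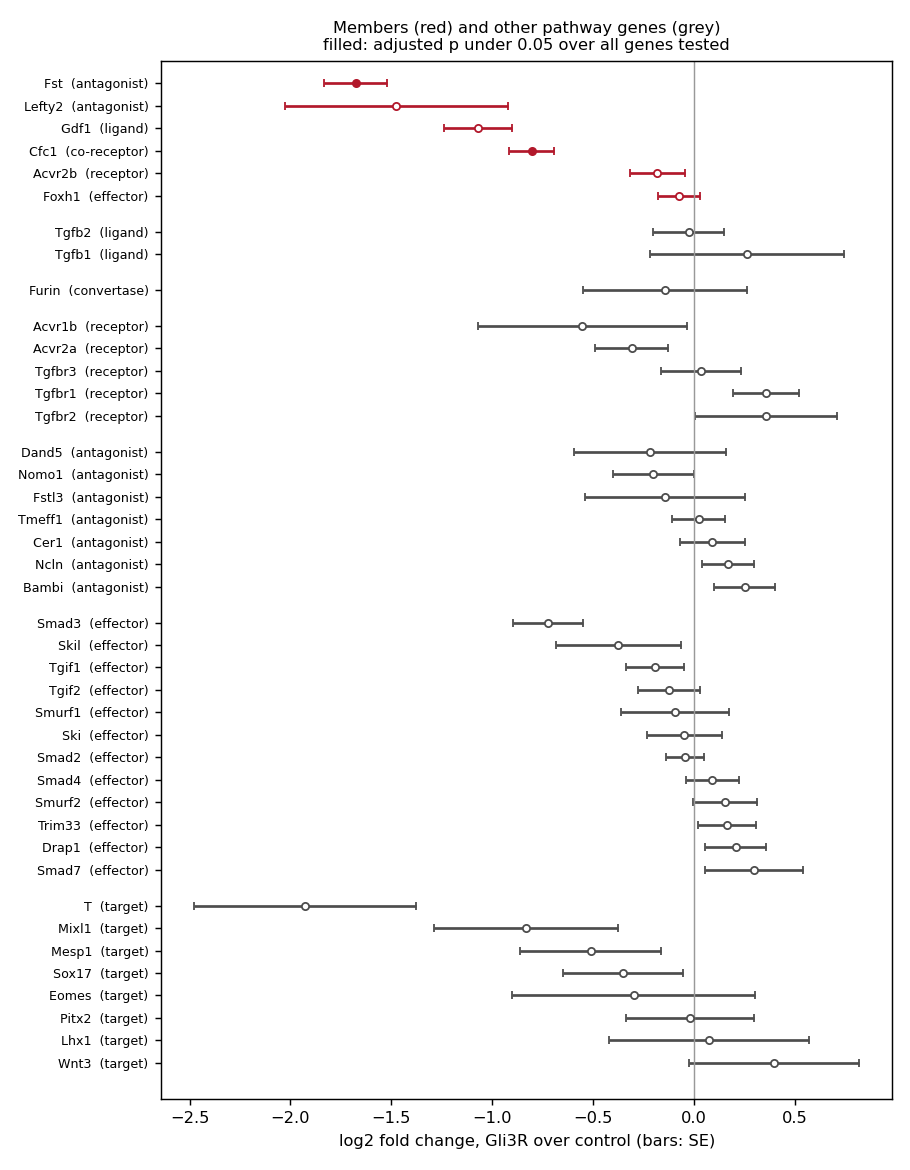
Log2 fold change of Gli3R over control (horizontal axis) with its SE for the 6 tested members in red and 35 tested genes of the pathway in grey, grouped by role; filled points passed at an adjusted p under 0.05. The 2 filled points are Fst and Cfc1.

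The genes most like Fst over the 6 libraries were sought among 9335 genes with a mean of at least 5 CPM, by the root mean square difference of centred log2 CPM. The nearest was the Notch ligand gene Dll3 (difference 0.137), followed by Serinc5 (0.229), the FGF ligand gene Fgf8 (0.249), Gm14680 (0.275) and the receptor gene Pth1r (0.282). For Cfc1 the nearest were the ephrin gene Efna4 (0.107), Smad3 (0.111), Xist (0.121), Tsix (0.134) and Tmem158 (0.138). These differences describe 6 shared libraries in 2 groups, so that any gene with a like step between the groups comes near.

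**Figure D4:**
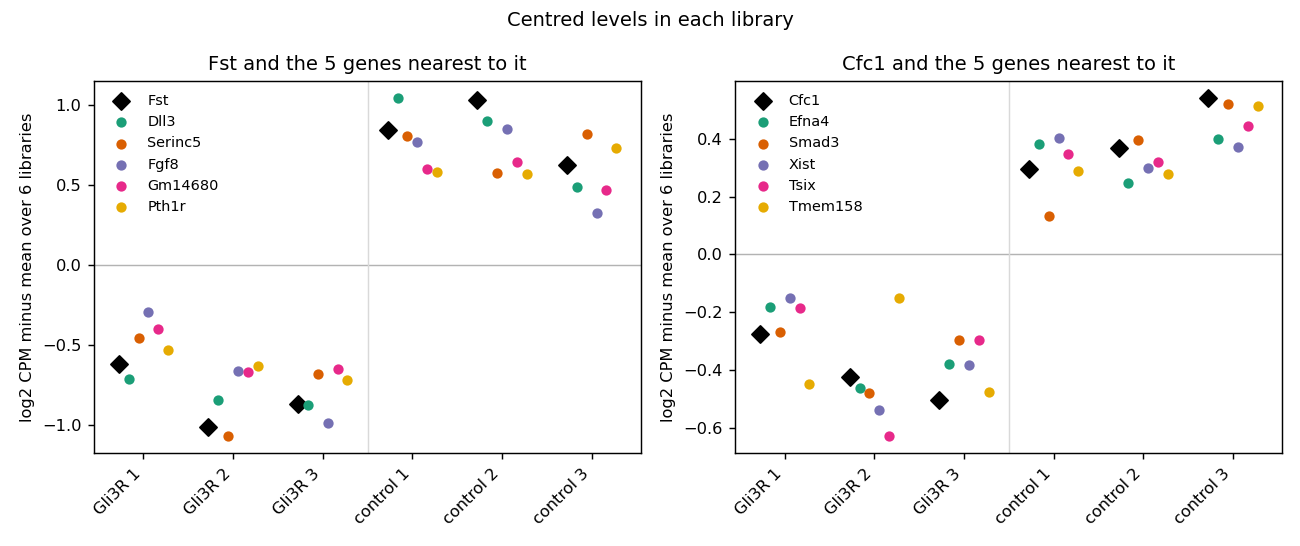
Log2 CPM minus the mean over the 6 libraries (vertical axis) for Fst and for Cfc1 (black diamonds), each with the 5 genes nearest to it (coloured points), in Gli3R replicates left of control replicates. All the Gli3R points lie below 0 and all the control points above it.

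Xist, the noncoding RNA that coats the inactive X chromosome of female cells, stood at 29.9, 22.8 and 25.5 CPM in Gli3R replicates 1, 2 and 3, against 44.0, 41.0 and 43.1 CPM in the control replicates. Its antisense gene Tsix shares reads with it when strand is not kept. The summed level of 4 Y-linked genes (Ddx3y, Eif2s3y, Kdm5d and Uty, chosen after the level of Xist was seen) was 84.0, 90.6 and 99.7 CPM in Gli3R libraries and 63.3, 66.0 and 61.1 CPM in control libraries. Both measures parted the groups without overlap, in opposite directions. The sex of the pooled embryos is not given in the sources used here, and its part in the lower levels of Fst, Cfc1 and Gdf1 was not tested.

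The sums of the marker lists of other cells overlapped between the groups. Single genes did not all overlap: every Gli3R library lay below every control library for Pou5f1, Cdh1, Epcam, Fgf5 and Slc7a3 of the epiblast list. The same held for Fgf8, Fgf4 and Wnt3a of the streak list and for Foxa2 of the node list. The groups overlapped for the other genes on these lists, and 6.33% of all genes tested were lower without overlap. Within each litter, the epiblast, streak and node sums were lower with Gli3R and the visceral endoderm sum was higher. None of the genes on these lists passed the edgeR test without the block. With litter as a block, 3 were lower with Gli3R. These were Cdh1 of the epiblast list (log2 fold change -3.24, edgeR adjusted p = 0.0327), T of the streak list and Cdx1 of the node list (-1.42, edgeR adjusted p = 0.0327). The 10 epiblast markers, led by Dnmt3b and Pou5f1, summed to 143 to 156 CPM in Gli3R and 151 to 271 CPM in control libraries, with 9 of 10 lower in the Gli3R mean. The 10 streak markers, led by T and Mixl1, summed to 22.1 to 37.7 CPM in Gli3R and 36.4 to 100.4 CPM in control libraries, with 9 of 10 lower in the Gli3R mean. Wnt3a, a streak marker, was at 0 in all Gli3R libraries and had 29 reads in control libraries.

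The 10 genes of the node list, led by Cdx1 and Dand5, summed to 8.59 to 25.4 CPM in Gli3R and 20.7 to 57.0 CPM in control libraries. Of these, 8 of 10 were lower in the Gli3R mean. Cdx1 alone made up most of each sum, so the sum is no measure of node cells. It stood at 23.1, 6.02 and 5.06 CPM in Gli3R replicates 1, 2 and 3, against 47.3, 19.7 and 16.9 CPM in the control replicates. Dand5 had 40 reads in Gli3R and 41 in control libraries. Of the defining node genes, Foxj1 was at 0 in all libraries, Shh had 1 read and Noto had reads in control replicate 1 alone. The 10 visceral endoderm markers, led by Cer1 and Rbp4, summed to 70.3 to 110 CPM in Gli3R and 66.2 to 105 CPM in control libraries. Of these, 3 of 10 were lower in the Gli3R mean, and Hnf4a was at 0 or near it in each library. Cer1 made up most of each sum, with 56.5, 60.1 and 84.7 CPM in Gli3R replicates 1, 2 and 3. In the control replicates Cer1 had 53.8, 66.6 and 67.2 CPM. The part of epiblast, streak, node or endoderm cells in the levels of Fst, Cfc1, Gdf1, Lefty2 and Tdgf1 was not tested.

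**Figure D5:**
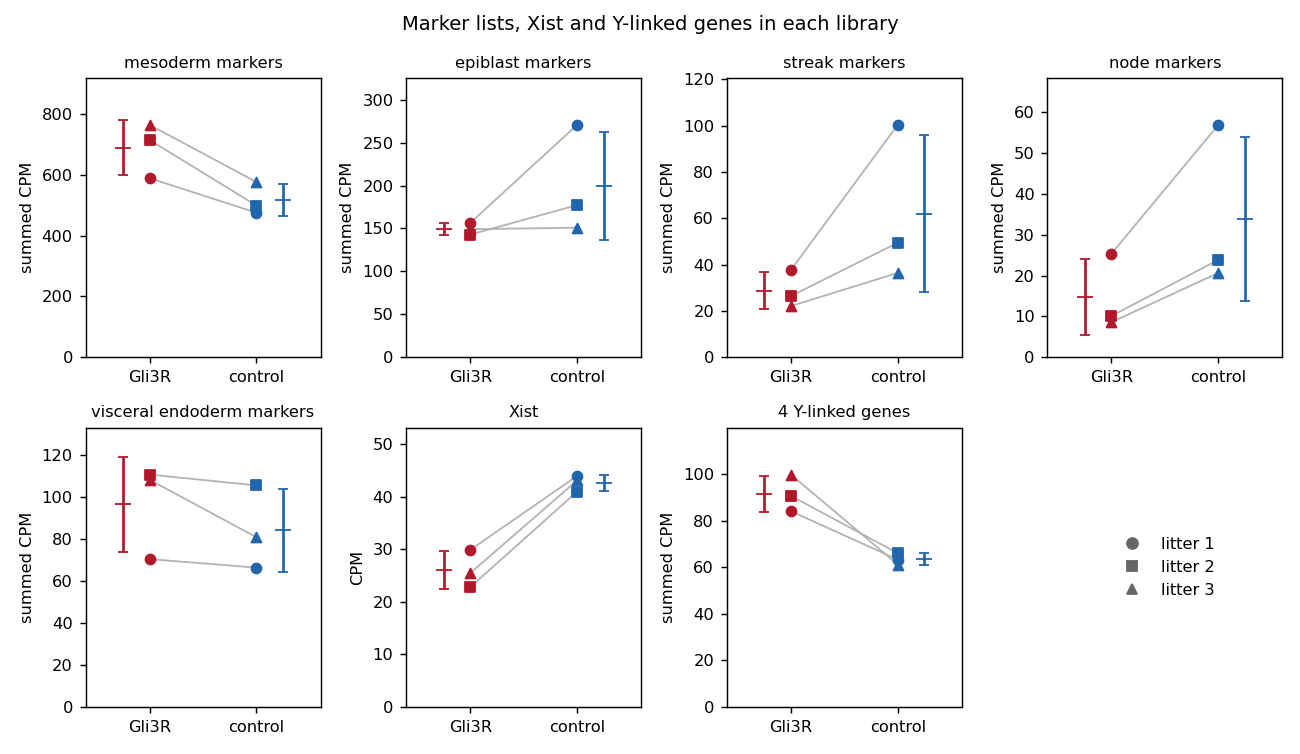
Summed CPM of 5 marker lists, the CPM of Xist and the summed CPM of 4 Y-linked genes (vertical axes, from 0) in each library, Gli3R left of control, with lines joining a litter and bars for the mean ± SD of 3 libraries. Xist is lower and the Y-linked sum higher in every Gli3R library than in any control library.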

How the data were processed

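Per the labels' protocols, littermate embryos were pooled and dissociated, and live cells were sorted into lysis buffer for SMARTer Ultra Low cDNA and Nextera XT libraries. The authors deposited raw counts per gene for 6 libraries. The submitters' processing notes name mm9 as build and, with no roles, TopHat2 2.0.14, featureCounts, Subread 1.4.6, FastQC and edgeR. Annotation and strand setting were not stated. Of Entrez IDs, 96.7% matched RefSeq's gene table (GRCm38.p6), and 27 symbols turned into dates were restored from it. Exon lengths and shared 50-base stretches came from GENCODE M21 (GRCm38), and 95.9% of tested genes had a length.

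Counts were analysed in R 4.3.3 with edgeR 4.0.16: filterByExpr (minimum count 10, which left 11913 genes), TMM scaling and the two-sided quasi-likelihood test of Gli3R against control, with Benjamini-Hochberg adjustment over all genes tested and a threshold of 0.05. The SE is the log2 fold change over the root of its F value. Log2 ratios by litter used log2 CPM with a prior count of 2. Intervals on reads are exact at 95%. The test was tested on simulated data. Libraries differed from each other by a chi-square of 4.12 to 15.2 per gene, above sampling noise. Replicate numbers name a litter in the labels, which pairs the libraries. Deviations of same-litter libraries had r = 0.168, 0.187 and 0.0755 in litters 1, 2 and 3, against -0.269 to 0.162 between litters, a range that holds the value of litter 3. The deviations are from group means of 3 libraries, so these r values are not independent of each other. Because the labels pair the libraries, litter was a block in a second fit. P-values measure the spread between litter pools. Members and lists were chosen with earlier results of these data known. Named are the 10 members, in each role of the wider list up to 3 tested genes with the smallest p and those with no count, the 5 genes nearest to Fst and to Cfc1, and the 2 highest markers of each list. Smad2, Smad4, Cer1, Foxa2, Lefty1, Upf1, Prss40, Cers1, Wnt3a, Cdh1, Msx1, Epcam, Fgf5, Slc7a3, Fgf4 and further markers at or near 0 were added after their values were seen. Alternatives were litter as a block, DESeq2 1.42.0 size factors or library size alone, no filter or 5 CPM in 3 libraries, the DESeq2 test, and each library left out.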

Additional observations from a re-analysis of the deposited data

How the results depend on the processing

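The number of genes called over the whole table, 16, became 27 with the replicate block (litter), 108 without the filter on low counts, 94 with the DESeq2 test and 0 to 18 when a library was left out. The 2 members called, Fst and Cfc1, became 1 with the block (Fst) and 0 to 2 when a library was left out, 0 without Gli3R replicate 3 and 1 without Gli3R replicate 1 or 2 or control replicate 2 or 3. Other pathway genes called numbered 0, and 1 (T) with the block and 1 (T) without the filter. With the block, Cfc1 lost its call, and T and the markers Bmp4 (0.69), Msx1 (0.83), Cdh1 (-3.24) and Cdx1 (-1.42, log2 fold changes) gained one. DESeq2 size factors, library size alone and the stricter filter left the members called at 2. Without the filter on low counts, and with the DESeq2 test, the members called were 3, with Gdf1 added. Leaving out a library turned the sign of Tgfb1 (-0.13 to 0.52), Tgfb2 (-0.19 to 0.0601) and Furin (-0.40 to 0.12), none of them called. Log2 fold changes ran from -1.80 to -1.56 for Fst, -1.20 to -0.96 for Gdf1, -1.91 to -0.85 for Lefty2 and -0.15 to -0.00144 for Foxh1. Lefty2 had no value under the filter of 5 CPM in 3 libraries. The causes were not tested. Depth limits Nodal, Inhba, Gdf3, Tdgf1 and Lefty1, which rest on 1 to 85 reads in all.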
